A study of Mus musculus with 12 samples.

Results

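The DNA copy number of olfactory receptor genes was measured in mouse liver tumors. The members were the autosomal genes whose name on the array was Olfr and a number, whatever their ratio: 592 of 19850 autosomal gene names, measured by 773 of 40666 autosomal probes. Of the 592 names, 575 stood under the same symbol in the RefSeq table of GRCm38.p6. Array-based comparative genomic hybridization (aCGH) was run on 12 tumors from Mdr2-KO/FVB livers, one array per tumor, and on each array tumor DNA (Cy5) was hybridized against non-tumor liver DNA of the same mouse (Cy3). Mice of both groups lacked Mdr2 (Abcb4), the canalicular phospholipid transporter, on the FVB background, and develop chronic liver inflammation and then hepatocellular carcinoma. The 6 post-PHx tumors (PHx1M, PHx2F, PHx3M, PHx4M, PHx5M and PHx6F, where M and F give the sex) came from 9-month-old mice after 70% partial hepatectomy at the age of 3 or 6 months. The 6 spontaneous tumors (Spon1M, Spon2M, Spon3F, Spon4F, Spon5F and Spon6F) came from untreated mice, females of 13 and males of 14 months, so that surgery and age cannot be told apart. No array had the dyes swapped, so a dye effect of a probe and a copy number change present in all tumors cannot be told apart either, and no tumor was hybridized more than once.

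Olfactory receptors are G protein-coupled receptors through which sensory neurons of the nose detect odorants, and each neuron expresses a single receptor allele. Their genes form one of the largest gene families of mammals and lie in tandem clusters that grew by duplication, with coding regions free of introns and many near-identical neighbours. Most of them have no known role in liver, but copy number is a property of the DNA and is read whether or not a gene is expressed.

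The members lay on all autosomes but 5, 12 and 18. Probes no more than 1 Mb apart were joined, and 753 of them fell into 30 clusters of at least 3 probes, while 20 probes lay alone or in pairs. The 5 clusters with most probes were the chromosome 2 cluster from Olfr992 to Olfr142 (123 probes of 111 gene names, mm8 chr2:85201045-90053080), a block of 112 probes on chromosome 4 (chr4:40268666-43876538), the chromosome 7 cluster from Olfr547 to Olfr692 (94 probes of 86 names, chr7:102408559-105243147), the chromosome 9 cluster from Olfr881 to Olfr986 (57 probes of 51 names, chr9:37743038-39938568) and the chromosome 19 cluster from Olfr1418 to Olfr1500 (42 probes of 38 names, chr19:11922013-13894777). The chromosome 4 block went against its label. One name, Olfr157, stood on all 117 probes between 36078669 and 43876538 of chromosome 4, in blocks of 5 and 112 separated by 3.05 Mb, and on 58 further probes of chromosome X, whereas no other Olfr name stood on more than 3 autosomal probes. Those 117 probes were kept because the name chose the members, are called the Olfr157-named blocks here, and cannot all mark one receptor gene. The other 656 probes carried 591 names.

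Sequences beside the start codon show how alike neighbours of the chromosome 2 cluster can be, and they are printed for genes on either side of a step in the ratio described below, other than Olfr1260. RefSeq windows of 250 bases before and 50 bases after the annotated start (GRCm38.p6, whose coordinates differ from the mm8 coordinates of the probes) were held for 480 of the 592 gene names. In 70.7% of the windows the annotated start was an ATG, against 5.83% of all 32851 windows, so for most members the annotated start was the first base of a start codon. Capitals mark the 50 bases from the start on, and the genes before the step come first.
Olfr1258, chr2:89929561-89929860 (+ strand): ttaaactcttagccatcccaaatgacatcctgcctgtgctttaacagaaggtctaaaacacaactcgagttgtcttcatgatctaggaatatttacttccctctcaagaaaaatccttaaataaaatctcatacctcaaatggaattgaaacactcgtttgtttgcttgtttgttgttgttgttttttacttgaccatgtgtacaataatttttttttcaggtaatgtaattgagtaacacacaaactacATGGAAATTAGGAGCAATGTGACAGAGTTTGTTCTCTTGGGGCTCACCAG
Olfr1259, chr2:89944064-89944363 (- strand): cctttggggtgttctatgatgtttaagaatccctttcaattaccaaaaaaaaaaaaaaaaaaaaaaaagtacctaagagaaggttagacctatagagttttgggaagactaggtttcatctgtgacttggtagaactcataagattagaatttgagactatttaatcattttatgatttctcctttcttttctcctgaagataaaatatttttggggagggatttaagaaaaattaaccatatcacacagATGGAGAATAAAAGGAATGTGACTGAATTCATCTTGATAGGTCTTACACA
Olfr1261, chr2:89993145-89993444 (+ strand): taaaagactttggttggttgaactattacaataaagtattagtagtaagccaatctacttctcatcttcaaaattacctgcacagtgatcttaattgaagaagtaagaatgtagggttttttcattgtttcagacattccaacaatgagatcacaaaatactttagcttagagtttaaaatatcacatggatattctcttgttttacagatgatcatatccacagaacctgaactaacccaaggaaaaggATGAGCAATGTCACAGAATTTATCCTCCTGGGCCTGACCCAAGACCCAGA
Olfr1262, chr2:90002158-90002457 (+ strand): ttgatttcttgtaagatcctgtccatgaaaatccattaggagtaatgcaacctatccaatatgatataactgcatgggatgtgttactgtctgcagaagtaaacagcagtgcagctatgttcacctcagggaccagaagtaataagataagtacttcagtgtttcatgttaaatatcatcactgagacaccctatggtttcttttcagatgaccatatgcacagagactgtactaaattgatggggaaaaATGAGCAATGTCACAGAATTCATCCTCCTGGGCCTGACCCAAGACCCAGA
Windows were compared position by position, without alignment or gaps. The coding starts of Olfr1261 and Olfr1262 shared 49 of 50 bases, while the 250 bases before them shared 31.6% of positions. Olfr1258 and Olfr1259 shared 31 of the 50 bases, and each shared at most 18 with Olfr1261 or Olfr1262. An inserted or missing base shifts the positions beyond it and lowers such counts. The low counts therefore do not show that the sequences are unlike, and likeness after alignment was not tested. Probes of close copies such as Olfr1261 and Olfr1262 can hybridize with each other's DNA, and which members did so was not tested. The windows of the members were rich in A and T, with a median of 64.7% against 47.3% over all windows. The letters TATAAA, searched on both strands, stood in 39.1% of the members' windows and in 13.6% of all windows. TAATTA, a core that homeodomain factors bind, stood in 18.3% against 5.29%, and CCCNNGGG, the core bound by EBF factors, in 4.16% against 13.7%. Matches of different motifs may overlap each other. None of the 3 motifs lay in the printed windows.

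The family as a whole lay slightly below the other autosomal probes in most tumors. The mean log2 ratio over all members ranged from -0.062 (PHx5M) to -0.010 (PHx2F) with a median of -0.025 in post-PHx tumors, and from -0.109 (Spon2M) to 0.011 (Spon5F) with a median of -0.028 in spontaneous tumors. It lay below the autosomal median in 11 of 12 tumors, and the groups overlapped over the whole post-PHx range. Against that median, the post-PHx mean had an exact sign-flip p of 0.031, the smallest that 6 tumors allow, and the spontaneous mean one of 0.094. The mean of all other autosomal probes ran from -0.0037 to 0.040 in post-PHx and from -0.072 to 0.026 in spontaneous tumors. Members minus these probes gave -0.064 to -0.011 in post-PHx tumors, below 0 in 6 of 6 (mean -0.042 ± 0.020, SD, n = 6; exact sign-flip test, p = 0.031). In spontaneous tumors the same difference ran from -0.135 (Spon2M) to 0.045 (Spon3F) and was below 0 in 4 of 6 (mean -0.024 ± 0.065, SD, n = 6; exact sign-flip test, p = 0.469). The groups differed in it by -0.018 (exact permutation test, p = 0.545). The group means of the members were -0.027 ± 0.019 and -0.034 ± 0.041 (SD, n = 6), a difference of 0.0062 (exact permutation test, two-sided, p = 0.788). On slide 2, the only slide that held both groups (2 tumors each), the difference was -0.028 (exact permutation test, p = 0.667, where 0.333 is the smallest possible). Without the Olfr157-named probes it was -0.010 (exact permutation test, p = 0.383), of the opposite sign. Without these probes the members' means ran from -0.035 to -0.017 in post-PHx tumors, with PHx5M at -0.034. In spontaneous tumors they then ran from -0.064 (Spon2M) to 0.0068 (Spon5F). The low ends in PHx5M and Spon2M thus came in part from the Olfr157-named probes, which averaged -0.215 and -0.359 there. The vomeronasal and trace amine receptors, chosen as other chemosensory receptors and measured by 60 probes, had means from -0.132 to 0.088. The members differed from them by -0.0015 ± 0.053 on average (SD, n = 12; exact sign-flip test, p = 0.931). The 393 probes of numbered zinc finger proteins, another family of tandem clusters, were higher than the members in 9 of 12 tumors, with a mean difference of members minus zinc finger probes of -0.049 ± 0.051 (SD, n = 12; exact sign-flip test, p = 0.0068).

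Cluster by cluster, the lowest ratios belonged to Spon2M and Spon5F. In the post-PHx tumors none of the 180 pairs of a cluster and a tumor reached an absolute mean log2 ratio of 0.4, the size filter of the study's aberration calls, where 2.44% of all pairs of a region and a tumor lay past it on the high side and 0.0812% on the low side. Regions here are the clusters and the 1 Mb bins outside them with at least 3 probes, 2052 in all. In the spontaneous tumors 4 of 180 pairs passed, all of them low, a share of 2.22% against 2.14% of all pairs on the low side and 2% on the high side, so the clusters were near the background. The share of regions at or below -0.4 was 6.04% in Spon5F, 3.22% in Spon2M, 2.19% in Spon3F, 1.02% in Spon1M and 0.341% in Spon6F, and no region was that low in Spon4F.

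**Figure D1:**
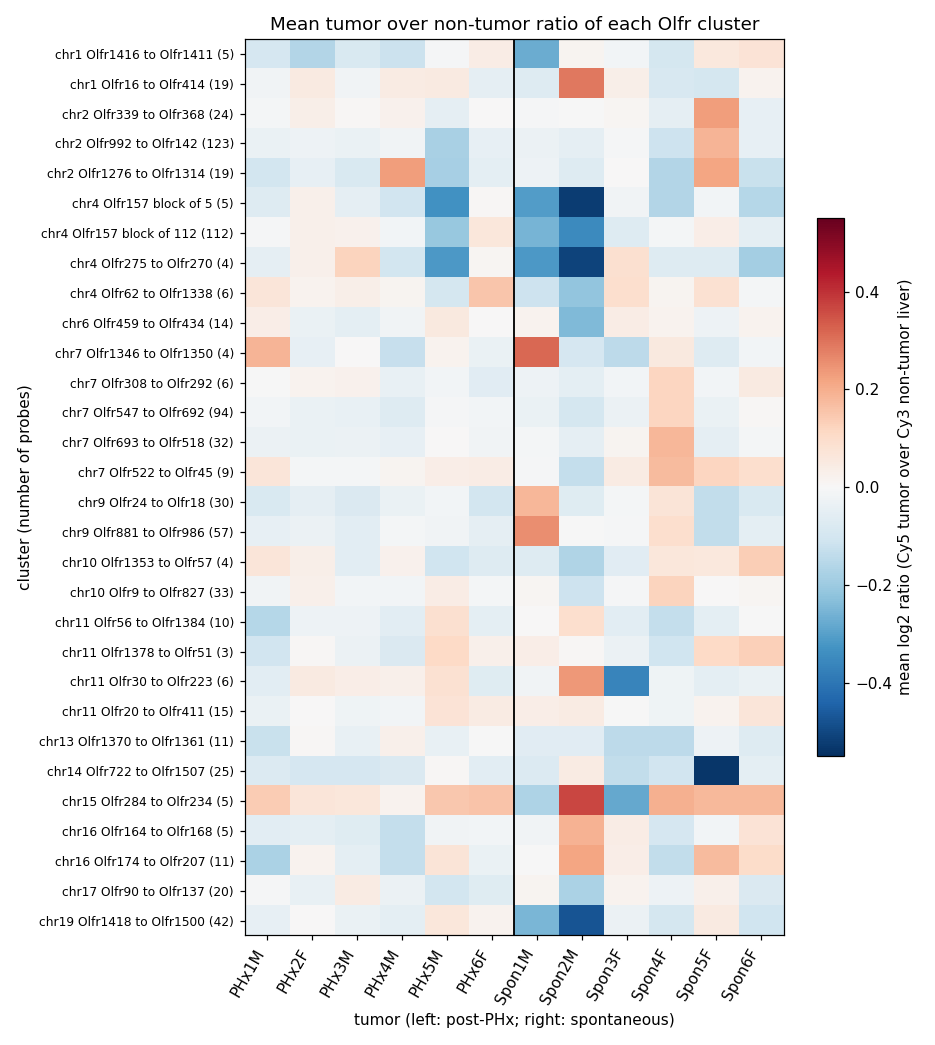
Rows are the 30 Olfr clusters in genome order with their number of probes, columns are the 12 tumors, and colour is the mean log2 ratio of the cluster's probes (red higher, blue lower in the tumor). The darkest blue cells are the chromosome 4 and chromosome 19 clusters in Spon2M and the chromosome 14 cluster in Spon5F.

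Spon2M held 3 of the 4 low pairs. Its chromosome 19 cluster, 42 probes from Olfr1418 to Olfr1500, had a mean log2 ratio of -0.48, a ratio of 0.719, with 41 of 42 probes below 0 and an SD over probes of 0.224. Genes within 2 Mb of the cluster stood at -0.45 and the median of all other chromosome 19 probes at -0.42 in that tumor, so the receptor genes were at the level of their chromosome. Over the groups this cluster ran from -0.052 to 0.063 with a median of -0.017 in post-PHx tumors, and from -0.476 to 0.047 with a median of -0.103 in spontaneous ones, where Spon1M was the next lowest at -0.25. The ranges overlapped, since Spon5F (0.047) and Spon3F (-0.031) lay among the post-PHx values.

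On chromosome 4, Spon2M had -0.52 in the Olfr157-named block of 5 (5 of 5 probes below 0; chr4:36078669-37215749), -0.51 in the 4 probes from Olfr275 to Olfr270 (chr4:52847364-52991768) and -0.35 in the block of 112. The flanking genes gave -0.40, -0.44 and -0.37 at these places. Those of the block of 5 lay only on its left (32 probes), and those of the block of 112 only on its right (49 probes). One of the 4 probes of the Olfr275 cluster was above 0, and with only probes well above background on every array its mean was -0.22, past no filter. The same clusters were low in Spon1M (-0.31, -0.32 and -0.26) and PHx5M (-0.33, -0.32 and -0.21), in which the medians of the other chromosome 4 probes were -0.21 and -0.23. In the remaining 9 tumors the block of 112 lay between -0.070 and 0.061. A shift of chromosome 4 was thus present in tumors of both groups, and the block of 112 had medians of 0.0075 (post-PHx) and -0.062 (spontaneous).

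The remaining low pair was the chromosome 14 cluster from Olfr722 to Olfr1507 (25 probes, chr14:48816270-51412025) in Spon5F. There 24 of 25 probes were below 0 and the mean was -0.53, a ratio of 0.691, beside -0.50 in the flanks and -0.47 as the chromosome's median. In the other tumors the cluster ran from -0.137 to 0.047. It was also the cluster that lay lowest against its surroundings: it was below its flank in 12 of 12 tumors (mean difference -0.067 ± 0.042, SD, n = 12) and below the 75 probes of other genes inside its own bounds in 12 of 12 (-0.064 ± 0.021).

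Of the other large clusters, the chromosome 7 cluster from Olfr547 to Olfr692 stayed near 0. Its means ran from -0.073 to -0.0083 (median -0.025) in post-PHx tumors and from -0.099 to 0.116 (median -0.034) in spontaneous ones, with Spon4F highest. The chromosome 9 cluster from Olfr881 to Olfr986 ran from -0.056 to -0.013 (median -0.039) and from -0.134 to 0.257 (median -0.0043), and Spon1M, the highest, had 0.28 as the median of the other chromosome 9 probes. The chromosome 2 cluster from Olfr992 to Olfr142 ran from -0.178 (PHx5M) to -0.021 (median -0.036) and from -0.113 to 0.185 (Spon5F; median -0.039).

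Tested with limma over all 2052 regions, no cluster passed an adjusted p of 0.05 in any comparison. Post-PHx tumors against non-tumor liver gave 0 of 30 clusters, against 0% of all regions. Spontaneous tumors gave 0 of 30, against 0.0487% of all regions, and post-PHx against spontaneous tumors 0 of 30, against 0%. At an unadjusted p under 0.05 (limma) there were 0, 6 and 0 clusters in these comparisons, in that order. The 6 lay on chromosomes 4, 13, 14 and 19 and were all low in spontaneous tumors. The share of all regions at that unadjusted level is not given here, so the 6 cannot be set against a background. No cluster had groups that did not overlap, against 0.195% of all regions. The lowest adjusted p belonged to the 11 probes from Olfr1370 to Olfr1361 on chromosome 13 in spontaneous tumors (chr13:21079895-21666710), at -0.086 ± 0.026 (SE; limma, adjusted p = 0.121), with values from -0.146 to -0.027 in the spontaneous and from -0.120 to 0.027 in the post-PHx tumors. One probe of this cluster, Olfr1361, was at -2.05 in Spon3F, -0.88 in Spon1M, -0.28 in Spon6F, 0.19 in Spon5F and 0.27 in Spon2M. In Spon4F it was the lowest member, and without it the cluster mean of -0.146 there became -0.061. Whether the cluster would rank first without this probe was not tested. Next in adjusted p were the Olfr157-named block of 5 at -0.196 ± 0.062 (limma, adjusted p = 0.132) and the chromosome 19 cluster at -0.153 ± 0.052 (limma, adjusted p = 0.158). With sex as a covariate, 3 of 30 clusters (10%) passed as lower in spontaneous tumors than in their non-tumor liver, where 96 of all 2052 regions (4.68%) passed as lower in the same fit: the Olfr157-named blocks of 5 (-0.24, limma adjusted p = 0.026) and 112 (-0.15, adjusted p = 0.043) and the chromosome 19 cluster (-0.18, adjusted p = 0.041). Between the groups, the lowest unadjusted p of a cluster (0.073) was that of the chromosome 19 cluster, which was 0.144 ± 0.074 (SE) higher in post-PHx tumors (limma, adjusted p = 0.887).

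Next, each cluster was set against the probes of other genes within 2 Mb on either side. In 302 of 360 pairs (83.9%) the cluster's mean lay within 0.1 of its flank's, in 159 of 180 post-PHx and 143 of 180 spontaneous pairs. Across the 360 pairs Pearson's r between cluster and flank was 0.756 with a slope of 0.784, as a description, since pairs of a tumor share an array and neighbouring clusters a chromosome. Averaged over the 30 clusters, the difference from the flank ranged from -0.039 (PHx4M) to -0.0021 (PHx6F) with a median of -0.015 in post-PHx tumors, and from -0.057 (Spon2M) to 0.046 (Spon3F) with a median of 0.0006 in spontaneous tumors. It was below 0 in 6 of 6 post-PHx tumors, with a mean of -0.018 ± 0.016 (SD, n = 6; exact sign-flip test, two-sided, p = 0.031, the smallest that 6 tumors allow). With normexp background correction the same mean was 0.018, of the opposite sign and like size (exact sign-flip test, p = 0.031). Against the other genes inside the clusters' own bounds it was 0.00036, but only clusters with at least 3 such probes had a value there. The sign was thus not kept under either, and the size was lost under the latter. The latter also averaged fewer clusters, and what part that had in the change was not tested. In spontaneous tumors the mean was -0.0052 ± 0.035 (SD, n = 6; exact sign-flip test, p = 0.75). It was 0.024 with normexp correction and -0.013 against the other genes inside that part of the clusters (exact sign-flip test, p = 0.031 for each). Without Spon2M it was 0.0051. The groups differed by -0.012 (exact permutation test, p = 0.47), and by -0.0091 on slide 2 alone (exact permutation test, p = 0.333, the smallest possible there).

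**Figure D2:**
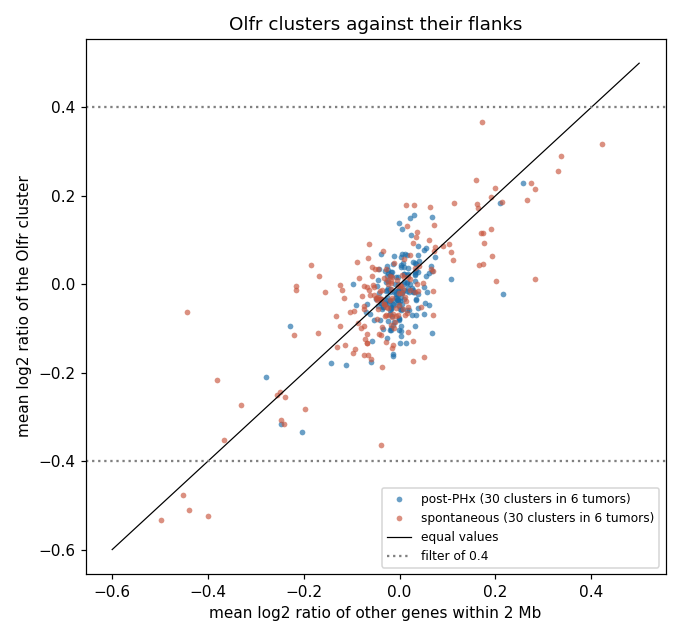
Each point is one of 30 Olfr clusters in one of 12 tumors, with the mean log2 ratio of other genes within 2 Mb on the horizontal and that of the cluster on the vertical axis. Most points lie along the line of equal values, and the 4 points below the lower dotted line of 0.4 are spontaneous tumors.

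Besides the chromosome 14 cluster, the lowest against their flanks over the 12 tumors were the Olfr157-named block of 5 (-0.065 ± 0.058, SD, n = 12) and the Olfr275 cluster (-0.057 ± 0.069). The block of 5 had flanking probes on its left side only. The highest were 5 probes from Olfr284 to Olfr234 on chromosome 15 (0.078 ± 0.097; chr15:98168026-98326408), 6 probes from Olfr62 to Olfr1338 on chromosome 4 (0.067 ± 0.064; chr4:118163480-118251567) and 9 probes from Olfr522 to Olfr45 on chromosome 7 (0.035 ± 0.087; chr7:140013600-140542865), each above its flank in 10 of 12 tumors. These rank ends were picked by value and carry no test. In 9 of 360 pairs the cluster stood more than 0.2 from its flank, 8 of them in spontaneous tumors and 5 of these in Spon3F. The widest was the 4-probe chromosome 10 cluster from Olfr1353 to Olfr57 in Spon3F, at -0.062 beside a flank of -0.44.

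The one wide gap in a post-PHx tumor held the clearest feature of the family. In PHx4M the chromosome 2 cluster averaged -0.021 while its flank averaged 0.216, and the flank itself was split, with 0.010 over 46 probes on the left and 0.346 over 73 probes on the right. Probe by probe, the change lay inside the cluster. The first 113 measured probes, up to Olfr1259 (chr2:89744907-89744966), had a mean of -0.046 ± 0.190 (SD over probes), and the last 9, from Olfr1260 (chr2:89779511-89779570) on, a mean of 0.292 ± 0.091, a ratio of 1.22. The gap between the 2 probes is 34.5 kb. The 9 probes were Olfr1260 (0.19), Olfr1261 (0.31), Olfr1262 (0.19), Olfr1263 (0.17), Olfr1264 (0.42), Olfr140 (0.35), Olfr32 (0.36), Olfr1270 (0.33) and Olfr142 (0.32), and each was above 0. The place of the split was chosen as the one that left the least variance in PHx4M, so the step of 0.338 carries no test. At the same place the other 11 tumors had steps from -0.163 to 0.107. Spon5F, high on the whole chromosome, had 0.177 before and 0.284 after it, and right and left flanks of 0.219 and 0.207. With normexp background correction, the chr2 step in PHx4M was 0.444.

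**Figure D3:**
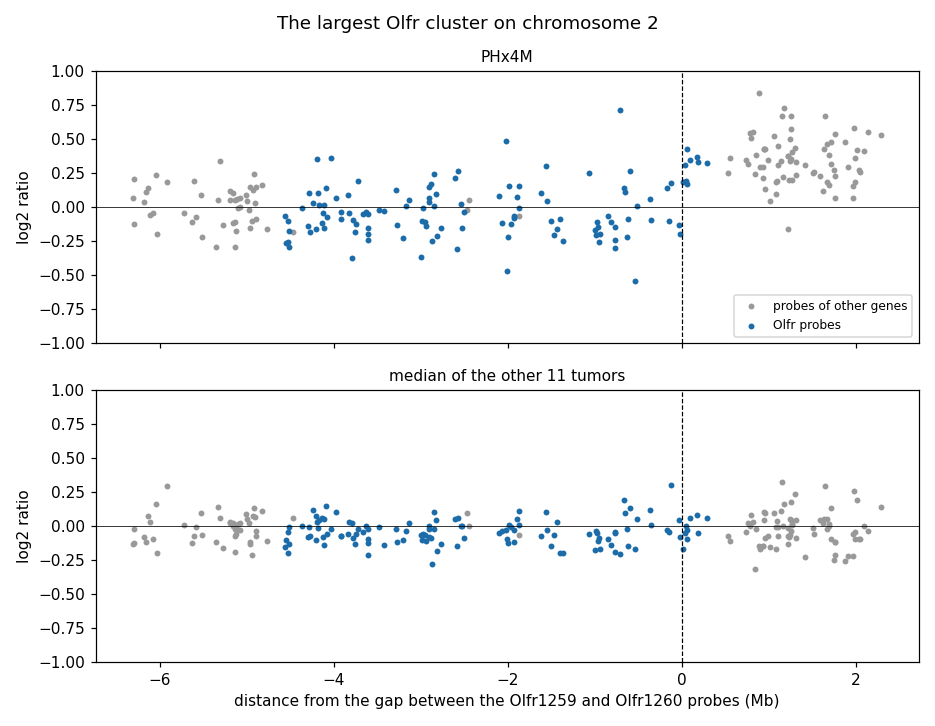
Log2 ratios of single probes of the chromosome 2 cluster (blue) and of other genes in and beside it (grey) against the distance in Mb from the gap between the Olfr1259 and Olfr1260 probes; PHx4M is above and the median of the other 11 tumors below. In PHx4M the 9 Olfr probes right of the dashed line and the flank after them lie around 0.3, and the points left of it around 0.

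Further along, the next chromosome 2 cluster, 19 probes from Olfr1276 to Olfr1314 (chr2:111057927-111893161), had 0.228 in PHx4M, with 0.00080 in its left and 0.428 in its right flank. It was 0.182 or less in size in the other post-PHx tumors and 0.217 in Spon5F. Of 336 pairs with genes on both sides, 6 had flanks that differed by more than 0.25. The other 4 were the chromosome 9 cluster from Olfr881 to Olfr986 in Spon1M (0.204 on the left, 0.257 in the cluster, 0.529 on the right), the chromosome 17 cluster from Olfr90 to Olfr137 in PHx6F (-0.076, -0.068 and 0.348) and in Spon1M (-0.027, 0.017 and 0.314), and the small chromosome 10 cluster in Spon3F (-0.177, -0.062 and -0.606). In the chromosome 17 cases the 20 receptor probes kept the level of their left side. Its right flank held only 3 probes.

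At the level of single probes, 32 of 770 tested members (4.16%) passed an adjusted p of 0.05 in post-PHx tumors against non-tumor liver, where 4.47% of all 40354 autosomal probes did (limma). In spontaneous tumors 40 of 770 (5.19%) passed, against 5.82% of all probes. Lower probes prevailed among the members, with 24 low and 8 high in post-PHx tumors and 27 low and 13 high in spontaneous tumors, while over all probes 1.97% were low and 2.5% high in the former and 2.9% low and 2.92% high in the latter. No member passed in post-PHx against spontaneous tumors (0 of 770; 0% of all probes; limma, lowest adjusted p = 0.993), and 2.08% of the members had an unadjusted p under 0.05, against 4.06% of all probes. The calls against non-tumor liver were not stable. With the slide as a fixed block, where only slide 2 held both groups, 0 members passed in either group. Leaving out 1 tumor left 3 to 46 and 14 to 46 calls. Without PHx1M, PHx2F, PHx3M, PHx4M, PHx5M or PHx6F the post-PHx calls were 4, 7, 3, 6, 17 and 8, and without Spon6F 20. Without Spon1M, Spon4F or Spon6F the spontaneous calls were 14, 17 and 24.

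The same 13 probes passed in both groups, 40.6% of the post-PHx and 32.5% of the spontaneous calls, all with one direction. The overlap over all autosomal probes is not given here, so whether these shares are particular to the members was not tested. Both comparisons read the tumor in red and the liver in green. The 13 lay in clusters on 8 chromosomes and were well above background in both channels on all arrays. Of these, 12 had the same sign in all 12 tumors, which choosing probes called in both groups favours. The 13 were single probes, since the rest of their clusters averaged between -0.145 and 0.068. Low in both were Olfr592, Olfr1461, Olfr1288, Olfr866, Olfr99, Olfr1109, Olfr734, Olfr713 and Olfr398, and high in both were Olfr116, Olfr282, Olfr532 and Olfr570. Olfr592 on chromosome 7 ran from -0.604 to -0.089 in post-PHx and from -0.585 to -0.170 in spontaneous tumors, with means of -0.38 (limma, adjusted p = 0.013) and -0.34 (adjusted p = 0.017). Olfr1461 on chromosome 19 ran from -0.381 to -0.290 and, with Spon2M lowest, from -0.960 to -0.257, with means of -0.32 (limma, adjusted p = 0.033) and -0.48 (adjusted p = 0.0070). Olfr1288 on chromosome 2 kept between -0.342 and -0.207 and between -0.384 and -0.079.

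**Figure D4:**
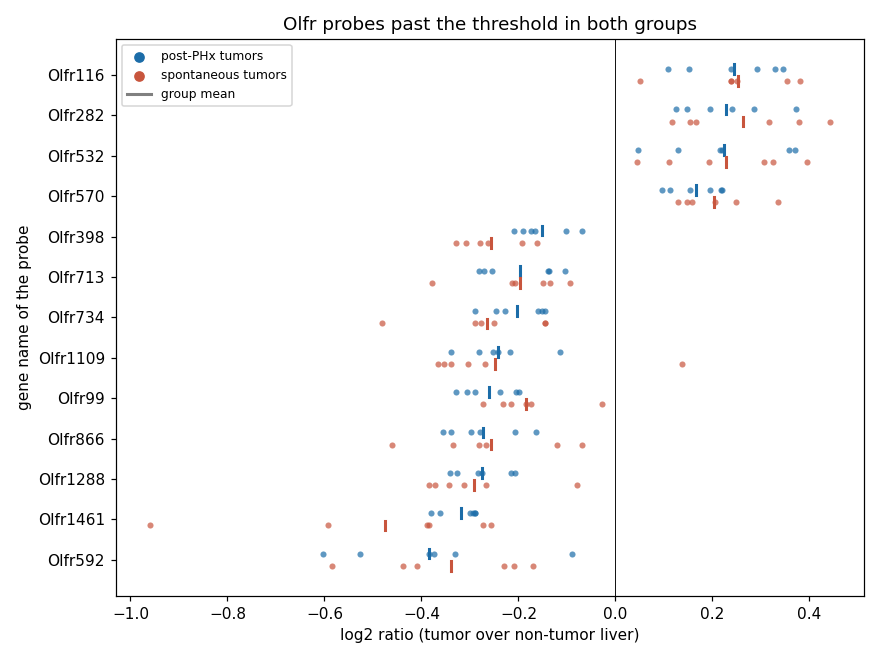
Log2 ratios in each of 6 post-PHx (blue) and 6 spontaneous (red) tumors for the 13 Olfr probes past an adjusted p of 0.05 in both groups, with vertical bars at the group means. Points of both groups lie on the same side of 0 for each probe, except 1 spontaneous tumor at Olfr1109 (0.138).

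Among the other low probes of post-PHx tumors were Olfr77 (-0.31), Olfr148 (-0.28), Olfr374 (-0.27), Olfr843 (-0.27) and Olfr112 (-0.26), and the remaining high ones were Olfr361 (0.28), Olfr215 (0.28), Olfr78 (0.20) and Olfr770 (0.19). Olfr78 is a receptor for short-chain fatty acids that is also expressed outside the nose. In spontaneous tumors 7 of the 40 were in the chromosome 19 cluster, where Olfr1494 (-0.40), Olfr1426 (-0.36), Olfr1449 (-0.32) and Olfr1454 (-0.31) followed Olfr1461. Another 4 carried the name Olfr157, led by means of -0.34 and -0.31. Of all 773 member probes, 42 lay in that cluster and 117 carried that name. The median of the other chromosome 19 probes ran from -0.42 (Spon2M) to 0.019 (Spon5F) in spontaneous tumors. The share of all chromosome 19 probes called is not given here, so the 7 cannot be set against their chromosome. Olfr273 of the chromosome 4 cluster was at -0.29. The high ones were led by Olfr1256 (0.31), Olfr15 (0.27), Olfr91 (0.27), Olfr370 (0.24), Olfr355 (0.23), Olfr354 (0.23) and Olfr802 (0.23).

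The most extreme members of each tumor were again single probes. Olfr993 was the highest of PHx1M (1.61) and PHx3M (2.18), while the rest of its cluster averaged -0.050 and -0.054 there and the probe lay between -0.43 and 0.19 in the other tumors that measured it. Olfr628 was the lowest of PHx1M, PHx3M, PHx5M and Spon5F and the highest of Spon6F, but it was well above background in both channels on 0 of 12 arrays, so no fold is given. Olfr137, the lowest of PHx2F and the highest of PHx6F, was well above background in both channels on 3 arrays. Olfr993 was so on 9 arrays, Olfr371 and Olfr907 on 8 each, and Olfr1362 and Olfr1038 on 11 each. Olfr371 was highest in PHx2F (0.76), Olfr1362 highest (1.13) and Olfr907 lowest (-0.90) in PHx4M, Olfr1038 lowest in PHx6F (-0.66), Olfr1018 highest in Spon1M (1.16) and Olfr855 highest in Spon4F (0.55). Olfr798 was highest in PHx5M (0.51) and lowest in Spon6F (-0.76). One Olfr157-named probe was the lowest of Spon1M (-2.35) and the highest of Spon2M (1.61), was at -2.09 in Spon3F, and stayed between -0.14 and 0.43 in the remaining 9 tumors. Olfr157-named probes were also the lowest of Spon2M (-1.03) and the highest of Spon3F (0.51) and Spon5F (0.73). Olfr520 was lowest in Spon3F (-2.24) and between -0.051 and 0.363 elsewhere, and Olfr1361, the lowest of Spon4F, was at -2.05 in Spon3F and -0.88 in Spon1M. Where such a probe lay in a cluster, the rest of the cluster averaged between -0.370 and 0.056 in that tumor, the lower end being the Olfr157-named block in Spon2M.

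Probes within the clusters scattered less than those of the flanks. The median over clusters of the SD of Olfr probes over the SD of flanking probes was below 1 in 12 of 12 tumors, from 0.807 to 0.876 (median 0.861) in post-PHx and from 0.443 (Spon3F) to 0.872 (median 0.804) in spontaneous tumors. The log2 ratio of the spreads averaged -0.229 ± 0.044 and -0.450 ± 0.365 (SD, n = 6), a difference of 0.221 (exact permutation test, p = 0.061), and -0.033 on slide 2 alone (exact permutation test, p = 0.667). Spon3F also had the widest SD over all other autosomal probes, 0.445, against 0.185 to 0.389 in the other tumors, and the part of that spread in the result was not tested. Measured from the steps between adjacent probes instead, the ratio ran from 0.769 (Spon3F) to 1.03 (PHx2F), above 1 in 2 tumors.

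Genes that turn receptor binding into a nerve signal, or that switch receptors on, were listed for comparison, and 16 of 21 listed genes had 30 tested probes. Of these 30, 2 were low and none high in post-PHx tumors, 1 was low and none high in spontaneous tumors, and none differed between the groups. Among all probes 1.97% were low in the former and 2.9% in the latter. With 2 and 1 calls among 30 probes, the counts are too few to set against these shares. Gnal, the G protein alpha subunit of olfactory neurons, had a probe between -0.603 and -0.120 in post-PHx tumors with a median of -0.37 and a mean of -0.38 (limma, adjusted p = 0.045), and between -0.627 and 0.277 in spontaneous tumors, while its other probe averaged -0.064 in post-PHx tumors. Ric8b, an exchange factor for that subunit, had a probe from -0.456 to -0.215 with a mean of -0.32 in post-PHx (limma, adjusted p = 0.0078) and from -0.375 to -0.032 with a mean of -0.20 in spontaneous tumors (adjusted p = 0.037). The other Ric8b probe averaged -0.040 and 0.039, so each of the 3 calls rested on a single probe of its gene. With 1 tumor left out, the post-PHx count was 1 without PHx1M, PHx2F, PHx3M, PHx4M, PHx6F or Spon1M, and the spontaneous count was 0 without PHx2F, Spon1M, Spon2M or Spon3F and 2 without Spon5F. The receptor chaperone genes Rtp1 and Rtp2, the transcription factor genes Lhx2, Emx2 and Ebf1 to Ebf4, and Adcy3, the adenylyl cyclase of the cascade, had no probe past the threshold.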

How the data were processed

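DNA of 12 tumors from Mdr2-KO/FVB livers was compared with matched non-tumor liver DNA by aCGH on Agilent 4x44K mouse arrays after digestion with AluI and RsaI. Samples were grouped by their labels. The authors deposited the output of Agilent Feature Extraction 10.5.1.1, with probes placed on mm8. The deposited log10 ratio (red tumor over green liver, background-subtracted and scaled for dye by the software) was used for all results, and the deposited intensities of both channels for the normexp alternative and for judging background. Median signal over background per array was 7.07 to 25.9 in green and 3.80 to 11.9 in red, and 108 to 1218 of 43020 spots were marked as outliers. The number of tumors limits the precision, and p-values set an effect against the spread between tumors, each a single mouse and array.

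Log10 ratios were multiplied by log2 of 10, control and outlier spots dropped, spots of a probe averaged and each array centred on its autosomal median, with no further normalization. Clusters joined Olfr probes up to 1 Mb apart. Single values were compared with exact permutation (2 groups) or sign-flip tests, and 2052 regions or 40354 probes with limma 3.58.1 in R 4.3.3 (group means, Benjamini-Hochberg adjustment over all), which was tested on simulated data. Python 3.11.15, numpy 2.4.6, pandas 2.3.3, scipy 1.17.1 and matplotlib 3.10.9 were used. The members, the gene lists and the tests were chosen with earlier results of these data known, and the comparison with the mean of all other autosomal probes was added after the values were seen. Named were clusters past the filter or called, the 5 with most probes, the 3 highest and 3 lowest against their flanks, up to 10 called probes per direction and comparison, the highest and lowest probe of each tumor, and odor transduction genes past the threshold; the chromosome 13 cluster, the clusters beside steps, the 9 probes after the chromosome 2 step and the genes of the last paragraph without a call were named after their values were seen. On 7 to 123 probes per array the ratio was exactly 0 although the processed signals differed. Autosomal members had ratios on 751 to 773 probes per array, and 62 Olfr probes of chromosome X were left out. The alternatives stand in the closing section.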

Additional observations from a re-analysis of the deposited data

Results flagged for a closer look

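Within each group of 6 tumors, a value was singled out when its gap to the nearest other tumor exceeded the 95% limit of Dixon's test (0.625 of the group's range). Of 28 groups tested, 7 held such a value, where chance gives about 1 in 20, and several of the 28 share a tumor. PHx5M stood apart on chromosome 4, at -0.21 in the Olfr157-named block of 112 and -0.33 in the block of 5. It also stood apart in the chromosome 2 cluster from Olfr992 to Olfr142, at -0.18, and in the chromosome 14 cluster from Olfr722 to Olfr1507, at 0.0080, where the other post-PHx tumors were lower. Spon5F stood apart in the same chromosome 14 cluster, at -0.53, and in the same chromosome 2 cluster, at 0.18. Spon3F had a ratio of the probe spread in clusters over flanks of 0.443.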

How the results depend on the processing

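Differences between the groups in the receptor family were small against the spread between tumors and had no stable sign. The group difference over all Olfr probes (0.0062) turned to -0.0047 with no centring, -0.0058 with medians over probes, -0.010 without Olfr157-named probes, -0.028 on slide 2 alone and -0.0014 without Spon2M and Spon5F, and ran from -0.0087 (without Spon2M) to 0.015 when 1 tumor was left out. The group difference of clusters minus flanks (-0.012) turned to 0.013 against other genes inside the clusters, 0.0041 in males alone and 0.0016 without Spon1M and Spon3F. For post-PHx tumors alone (-0.018) it turned to 0.018 with normexp and 0.00036 against genes inside, and was -0.015 (exact sign-flip p = 0.094) with a cluster gap of 0.5 Mb and -0.014 (p = 0.156) with a flank of 1 Mb; it ran from -0.021 to -0.013 without 1 tumor, where 5 tumors allow no p under 0.0625. For spontaneous tumors (-0.0052) it turned to 0.024 with normexp and 0.0059 without Spon2M and Spon5F, passed at -0.013 against genes inside, and ran from -0.015 to 0.0051 (without Spon2M). All values against genes inside the clusters cover only clusters with at least 3 such probes, not all 30. The spread difference (0.22) turned to -0.033 on slide 2 alone. Calls of single probes moved most. For Olfr probes in post-PHx and spontaneous tumors (32 and 40) there were 184 and 201 with normexp (23.9% and 26.1% of the members, against 23.9% and 23.7% of all probes in the same fits), 0 and 0 with the slide as a block (0.00248% and 0.00743% of all), 124 and 16 with array weights (16.1% and 2.08%, against 15.9% and 2.74%), 17 and 4 without Spon1M and Spon3F (2.24% and 0.527%, against 3.38% and 0.635%), 60 and 12 without Spon2M and Spon5F (7.96% and 1.59%, against 8.06% and 1.54%), and 3 to 46 and 14 to 46 without 1 tumor (0.955% to 6.91% and 2.26% to 6.01% of all probes). For odor transduction probes (2 and 1) there were 6 and 4 with normexp, 1 in post-PHx tumors with centring on the mode, 0 and 0 with the slide block, 1 and 0 without Spon1M and Spon3F, 0 in spontaneous tumors with array weights or without Spon2M and Spon5F, and 1 to 2 and 0 to 2 without 1 tumor. With sex as a covariate, 3 of 30 clusters were called in spontaneous tumors (10%, against 4.92% of all regions). Pairs past the filter (0 and 4) numbered 2 and 16 at 0.25, 0 in spontaneous tumors at 0.6, and 2 there among clusters of at least 10 probes. The shares of all pairs of a region and a tumor at these settings are not given here, so these counts have no background. Tumor numbers did not pair the samples (same-numbered tumors correlated at -0.136 to 0.397, and 1 of 6 pairs exceeded 0.1), and with the tumor number as a replicate block 3 and 10 Olfr probes (0.39% and 1.3%, against 1.2% and 1.74% of all) and 1 and 0 transduction probes were called. The causes of these changes were not tested. Spon1M and Spon3F had been chosen to be left out as arrays of wide spread, but Spon2M and Spon5F were wider between neighbouring probes and were left out as well, a choice made after seeing the data, as were those on Olfr157-named probes, on ratios of exactly 0 and on adjacent probes. Signal over background was lowest in PHx1M, so probes near background are least certain there.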
